A study of Homo sapiens with 6 samples.

Results

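A set of 8 genes of the caspase cascade was examined in the human neuroblastoma line BE-(2)-C, in which MYCN is amplified, at 48 hours of siRNA treatment. They are the initiator caspase genes CASP2, CASP8 and CASP9, the executioner caspase gene CASP6, the apoptosome genes APAF1 and CYCS, and DIABLO and XIAP, which encode a mitochondrial antagonist of the inhibitors of apoptosis and the inhibitor it binds. The members were chosen by name, as rows of the deposited table whose name equals the gene symbol, and all 8 were found among its 26906 rows. The 2 groups were cells given a control siRNA and cells given an siRNA against ELF4, a transcription factor of the ETS family, with 3 libraries of polyA-selected RNA in each. All cells were of the same line and time point, no untreated cells were compared, and the labels give neither the number of siRNA sequences nor a batch.

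Caspases are proteases that cells make as inactive precursors. In the mitochondrial route to apoptosis, cytochrome c leaves the mitochondrion and assembles with APAF1 into the apoptosome, which activates caspase-9. Caspase-9 then activates some of the executioner caspases. Death receptors act through caspase-8 instead, whose gene is often silenced in neuroblastomas with amplified MYCN. XIAP blocks caspase-9 and some, but not all, of the executioners, and DIABLO, released together with cytochrome c, relieves that block. The mRNA levels given here measure neither the proteins nor their activation.

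Values are normalised read counts, which are the reads of a gene divided by a size factor of its library. The reads recovered from them numbered 23148635 to 38097986 per library, and the values of a group are always given in the order of replicates 1, 2 and 3. ELF4 itself had 42.4, 38.8 and 46.8 normalised reads in the control libraries against 5.51, 5.61 and 3.10 after ELF4 siRNA (log2 fold change -2.96, limma adjusted p = 5.38e-07). The ELF4 siRNA libraries held 3 to 5 ELF4 reads each. All 10 sympathetic neuroblastoma markers had at least 100 normalised reads in all 6 libraries, and their sum was 209300 to 223655 in control and 243100 to 263185 in ELF4 siRNA libraries. Of 10 markers of other cell types, 9 had a row, 3 stayed under 10 in all libraries and 2, the matrix genes COL1A1 and DCN, were at least 100 in all of them, and none was at 0 in all 6; the sum of the 9 was 1350 to 1395 in control libraries and 2148 to 2403 in ELF4 siRNA libraries. DCN made up most of that difference, with a mean of 968 in control and 1722 in ELF4 siRNA cells, whereas CD14 had means of 40.3 and 16.7 and EPCAM of 13.9 and 10.1. The part of either marker difference in the results that follow was not tested, and in bulk RNA fewer cells expressing a gene and less RNA per cell cannot be told apart.

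Of the 8 genes, 5 fell after ELF4 siRNA, 1 rose and 2 did not pass the test. CASP2, APAF1 and CYCS fell to 71.2%, 71.0% and 71.5% of their control means, CASP8 to 76.0% and CASP6 to 54.8%. DIABLO, by the row that carries its name alone, rose to 136% of control. XIAP and CASP9 did not pass, at 98.8% and 109% of control. Among the 20339 genes tested, 24.4% fell and 20.7% rose at a Benjamini-Hochberg adjusted p below 0.05, and the median log2 fold change was -0.0042 over all of them and -0.43 over the 8. The 3 control and 3 ELF4 siRNA values did not overlap for 6 of the 8 genes, as for 53.6% of the genes tested. No test of the 8 genes as a group was made. They were chosen with earlier results of these data known, so the 2 medians only describe.

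**Figure D1:**
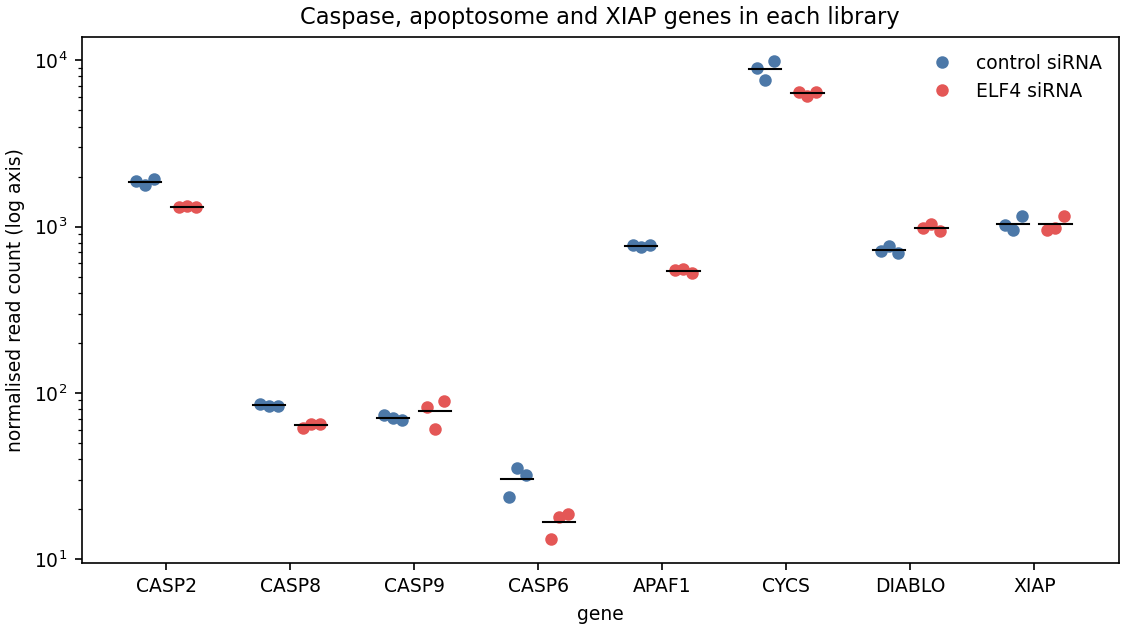
Normalised read count (vertical log axis) of each of the 8 genes in the 3 control siRNA libraries (blue) and the 3 ELF4 siRNA libraries (red), replicates 1 to 3 from left to right; the black line is the group mean. Control means run from 30.3 for CASP6 to 8865 for CYCS, and the groups overlap only for CASP9 and XIAP.

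The promoters of the genes that moved by nearly the same amount are shown, beside that of CASP9, which did not pass. Those of CASP6, CASP8, DIABLO and XIAP were searched in the same way but are not printed. ELF4 is an ETS factor, and ETS factors bind sites with the core GGAA; the extended cores CGGAAG and AGGAAG were looked up on both strands in the 250 bases before each annotated start. Sequences are from RefSeq (GRCh38.p14), which held all 8 genes, and capitals mark a match (CCGGAAG contains CGGAAG). All of CASP2, APAF1 and CYCS lacked both motifs at every annotated start, and the first start of CASP2 is shown. The core GGAA itself was not absent. Counted on both strands, the CASP2 window shown held 5, and those of APAF1, CYCS and CASP9 held 1 each.
CASP2 (chr7:143288101-143288350, + strand): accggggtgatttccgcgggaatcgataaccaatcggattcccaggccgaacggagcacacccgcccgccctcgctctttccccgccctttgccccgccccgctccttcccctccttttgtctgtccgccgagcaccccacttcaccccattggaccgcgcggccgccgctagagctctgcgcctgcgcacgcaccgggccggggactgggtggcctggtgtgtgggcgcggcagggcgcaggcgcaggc
APAF1 (chr12:98645040-98645289, + strand): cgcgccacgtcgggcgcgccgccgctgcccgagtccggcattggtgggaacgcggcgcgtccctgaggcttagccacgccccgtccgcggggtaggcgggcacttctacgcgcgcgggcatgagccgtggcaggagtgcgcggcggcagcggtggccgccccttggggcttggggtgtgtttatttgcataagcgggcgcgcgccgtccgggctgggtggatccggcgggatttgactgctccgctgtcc
CYCS (chr7:25125261-25125510, - strand): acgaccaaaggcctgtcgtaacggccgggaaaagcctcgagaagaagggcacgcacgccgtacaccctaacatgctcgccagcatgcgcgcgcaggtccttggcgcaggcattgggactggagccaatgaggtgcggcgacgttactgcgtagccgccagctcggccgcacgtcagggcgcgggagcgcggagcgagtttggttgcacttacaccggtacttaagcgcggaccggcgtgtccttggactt
CASP9 (chr1:15524216-15524465, - strand): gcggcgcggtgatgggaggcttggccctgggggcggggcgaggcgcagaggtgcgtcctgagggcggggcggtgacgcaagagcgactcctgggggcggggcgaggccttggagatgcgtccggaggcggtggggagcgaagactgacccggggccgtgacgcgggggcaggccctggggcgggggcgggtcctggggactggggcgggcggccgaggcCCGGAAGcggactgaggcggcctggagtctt

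In CASP9 the match CCGGAAG began 31 bases before the first of its 2 starts, and the other start had none. Of all 35116 promoter windows of this length in the table, 8.52% held CCGGAAG and 40.8% held CGGAAG or AGGAAG. CASP6 had a match at its 1 start, CASP8 at 3 of 3 starts, DIABLO at 3 of 4, and XIAP at 0 of 3. Over the 8 genes, 8 of 17 starts held a match. Matches stood in genes that fell (CASP6, CASP8), in the gene that rose (DIABLO) and in one that did not pass (CASP9). A match is a description of letters and no measurement of ELF4 binding.

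CASP2, whose caspase is activated on the PIDDosome, a platform built from PIDD1 and CRADD, gave the most uniform ELF4 siRNA values of the 8. Its values were 1876, 1769 and 1922 in the control libraries against 1320, 1322 and 1321 after ELF4 siRNA. The 3 ELF4 siRNA libraries thus lay within 3 normalised reads of one another and well below all controls. The mean went from 1856 ± 78.2 (SD, n = 3) to 1321 ± 1.30 (SD, n = 3), or -0.49 on the log2 scale (SE 0.05, limma adjusted p = 1.43e-06). These values rested on 1178 to 2713 reads per library. Sampling of so many reads alone gives a wider spread than an SD of 1.30, so this closeness is not read as a trait of CASP2. The 2 genes of its platform, looked up after their values were seen, did not pass: PIDD1 (listed as PIDD) had a log2 fold change of -0.04 (limma adjusted p = 0.62) and CRADD one of -0.07 (limma adjusted p = 0.439).

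CASP8, the initiator recruited by death receptors, was detected at a low level. It had 85.7, 83.4 and 83.6 normalised reads in the control libraries against 61.7, 65.1 and 65.2 after ELF4 siRNA, so the groups did not overlap. The mean fell from 84.2 ± 1.30 to 64.0 ± 2.00 (log2 fold change -0.39, SE 0.11, limma adjusted p = 0.0103). Both SDs were below what sampling of so few reads alone gives. With 56 to 118 reads per library the call depended on the test, since DESeq2 on the recovered reads gave an adjusted p of 0.125 at a log2 fold change of -0.39 (range over all alternatives 0.00238 to 0.125).

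CASP9, the initiator that the apoptosome activates, moved in no common direction. Controls had 73.5, 70.8 and 68.7 normalised reads and ELF4 siRNA libraries had 82.6, 60.6 and 89.0. Replicates 1 and 3 of ELF4 siRNA were above all controls and replicate 2 was below all of them. The mean was 71.0 ± 2.39 in control and 77.4 ± 14.9 in ELF4 siRNA cells, with a log2 fold change of 0.10 (95% interval -0.20 to 0.41, limma adjusted p = 0.588). Leaving out ELF4 siRNA replicate 2 gave 0.27 and leaving out replicate 3 gave -0.0041, neither of which passed (limma adjusted p = 0.108 and 0.986, the range over all alternatives). At 54 to 97 reads per library the interval excludes a fall of the size seen in APAF1, but it reaches up to a rise of 0.41.

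CASP6, an executioner that cleaves lamin A, had the lowest level and the largest fold change of the 8. Its values were 23.6, 35.4 and 31.9 in the control libraries against 13.2, 17.96 and 18.6 after ELF4 siRNA. The highest ELF4 siRNA library lay below the lowest control. The mean fell from 30.3 ± 6.09 to 16.6 ± 2.95, a log2 fold change of -0.82 with a wide 95% interval of -1.30 to -0.35 (limma adjusted p = 0.00693). Only 12 to 18 reads per ELF4 siRNA library and 25 to 45 per control library stood behind these values, and DESeq2 on the recovered reads did not call the fall (adjusted p = 0.0566, log2 fold change -0.85; 0.00318 to 0.0566 over all alternatives). In GENCODE 29, 105 exonic bases of CASP6 are shared with MCUB on the opposite strand. Without a stated strand setting the handling of reads from these bases is not known, and no row of the deposited table joins CASP6 with another gene.

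APAF1, the scaffold of the apoptosome, had 777, 752 and 770 normalised reads in the control libraries against 547, 557 and 528 after ELF4 siRNA. The groups lay far apart, and the spread within each was below what sampling of its reads alone gives. The mean fell from 766 ± 13.2 to 544 ± 14.8 (log2 fold change -0.49, SE 0.05, limma adjusted p = 5.00e-06). Of its 7908 exonic bases in GENCODE 29, 750 overlap ANKS1B on the opposite strand.

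CYCS encodes cytochrome c, the electron carrier of the respiratory chain that triggers apoptosome assembly once it is in the cytosol. It had the highest values of the 8, with 8971, 7664 and 9960 normalised reads in the control libraries against 6451, 6066 and 6490 after ELF4 siRNA. Controls spread more widely than ELF4 siRNA libraries, yet all 3 controls lay above. The mean fell from 8865 ± 1152 to 6336 ± 235 (log2 fold change -0.48, 95% interval -0.63 to -0.32, limma adjusted p = 8.46e-05). Its level is uncertain because processed pseudogenes resemble it closely; the 4 pseudogene rows in the table were small, and the largest, CYCSP55, had a mean of 125 ± 6.68 in control and 110 ± 3.39 in ELF4 siRNA cells (limma adjusted p = 0.144).

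CYCS and its partner APAF1 fell by similar amounts. The log2 ratio of CYCS to APAF1 within a library, chosen after the values were seen, was 3.52 ± 0.17 in control and 3.54 ± 0.09 in ELF4 siRNA cells, and the difference of 0.02 did not pass (two-sided exact permutation p = 0.9). For any such comparison of 3 libraries with 3, 0.1 is the smallest p that can be reached. CYCS reads were 10.2 to 12.9 times those of APAF1 in control and 10.9 to 12.3 times in ELF4 siRNA libraries.

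**Figure D2:**
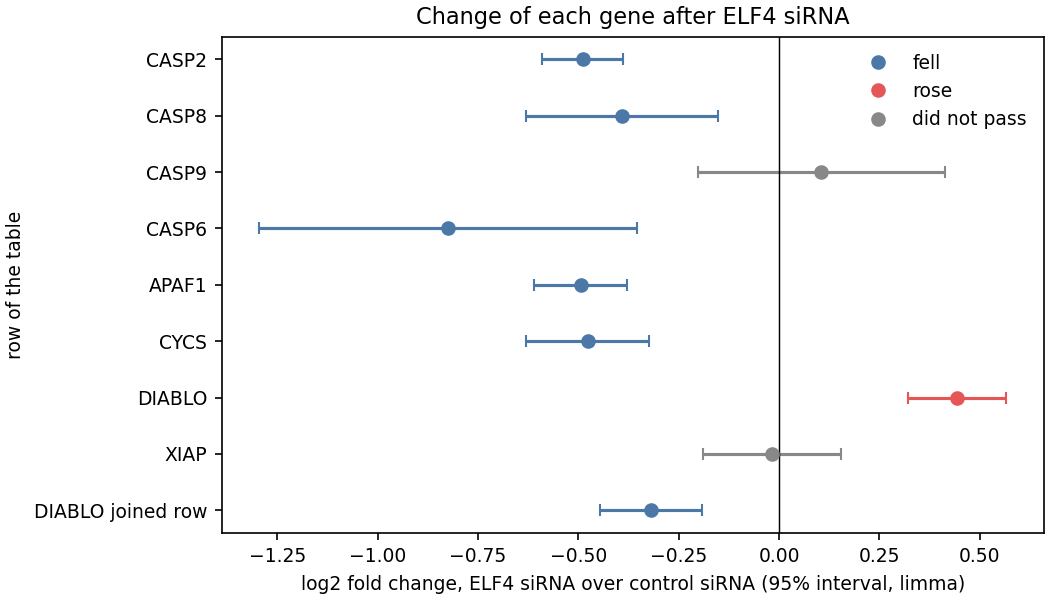
Change on the log2 scale from control to ELF4 siRNA (horizontal axis) for the 8 genes and for the row in which reads of DIABLO are joined with another gene's; points are limma estimates and bars 95% intervals. CASP2, APAF1 and CYCS sit together between -0.49 and -0.48, while DIABLO (0.44) and its joined row (-0.32) lie on opposite sides of 0.

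DIABLO gave opposite results in the 2 rows that hold its reads. The row with its name alone had 713, 767 and 697 normalised reads in the control libraries against 986, 1033 and 943 after ELF4 siRNA. All ELF4 siRNA libraries lay above all controls, and the mean rose from 726 ± 36.3 to 987 ± 44.9 (log2 fold change 0.44, SE 0.06, limma adjusted p = 2.28e-05). A second row joins DIABLO with RP11-512M8.5 and had 702, 655 and 735 normalised reads in the control libraries against 562, 550 and 563 after ELF4 siRNA. Here all ELF4 siRNA libraries lay below all controls, and the mean fell from 697 ± 40.6 to 558 ± 7.19 (log2 fold change -0.32, SE 0.06, limma adjusted p = 5.16e-04).

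The ratio of the joined to the own row, taken within each library, therefore differed between the groups. It was 0.984, 0.854 and 1.05 in the control libraries against 0.570, 0.533 and 0.597 after ELF4 siRNA, a log2 difference of -0.76 (two-sided exact permutation p = 0.1, the smallest possible; chosen after the values were seen). This ratio does not depend on how libraries were scaled. Summed over both rows, DIABLO went from 1423 ± 8.72 to 1545 ± 38.5 normalised reads, a log2 fold change of 0.12 (limma adjusted p = 0.0401). The size of the rise of DIABLO thus depends on which reads are counted for it.

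**Figure D3:**
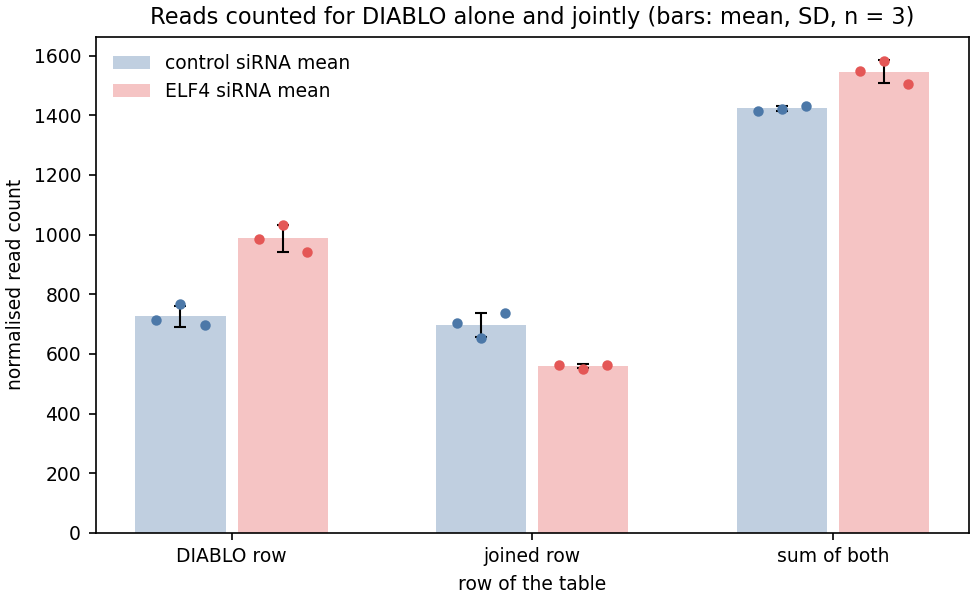
Normalised read count (vertical axis) of the row named DIABLO alone, of the row joining DIABLO with RP11-512M8.5, and of their sum; bars are means of 3 libraries, error bars SD and points the libraries, replicates 1 to 3 from left to right. The own row is higher and the joined row lower after ELF4 siRNA, and their sum differs by 8.61%.

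Gene models give the parts of DIABLO that such rows may hold. In GENCODE 29, which is on another build than the hg19 of the submitters' processing notes, 1 gene on the same strand, AC048338.1, shares exonic bases with DIABLO and with its neighbour VPS33A, and the deposited table likewise has a row joining RP11-512M8.5 with VPS33A. The 2 names are not paired by the tables used here, so their identity is an inference. In the 7-exon transcript DIABLO-217, exons 4, 5 and 6 and 799 of the 915 bases of exon 7 are shared with AC048338.1, in all 1139 bases, whereas exons 1 to 3 (1001 bases) and 116 bases of exon 7 are not. By these models, and for this transcript, the row that rose would hold the 5′ part of the transcript and the row that fell most of the 3′ part. Over all its transcripts DIABLO has 7119 exonic bases, so the own row may also hold reads of exons outside this transcript. The row joining RP11-512M8.5 with VPS33A had 2643 ± 5.78 normalised reads in control and 2875 ± 32.3 in ELF4 siRNA cells (log2 fold change 0.12, limma adjusted p = 0.0205). On the opposite strand, B3GNT4 also overlaps exons of DIABLO.

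XIAP, the inhibitor of caspases, did not pass the test. It had 1021, 952 and 1158 normalised reads in the control libraries against 953, 980 and 1160 after ELF4 siRNA. The groups covered almost the same range. The mean was 1043 ± 105 in control and 1031 ± 113 in ELF4 siRNA cells, which is -0.02 on the log2 scale (SE 0.08, limma adjusted p = 0.876). The 95% interval of -0.19 to 0.15 excludes a fall of the size seen in CASP2, APAF1 or CYCS. In both groups replicate 3 was the highest of the 3.

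Ratios within a library compare the change of a gene with that of its partner. They are ratios of reads, not divided by transcript length, so their size does not show which gene has more mRNA. The DIABLO own row was 0.698, 0.806 and 0.602 times XIAP in control replicates 1, 2 and 3 and 1.03, 1.05 and 0.813 times XIAP in ELF4 siRNA replicates 1, 2 and 3, without overlap, a log2 difference of 0.46 (two-sided exact permutation p = 0.1). With the joined row added to DIABLO the difference was 0.14 (exact permutation p = 0.3). CASP9 was 0.0720, 0.0744 and 0.0594 times XIAP in control replicates 1, 2 and 3 and 0.0867, 0.0619 and 0.0767 times in ELF4 siRNA replicates 1, 2 and 3, which overlapped (log2 difference 0.12, exact permutation p = 0.4). CASP8 was 0.236, 0.254 and 0.222 times the own row of CFLAR in control replicates 1, 2 and 3. CFLAR encodes a catalytically inactive relative of caspase-8 that blocks its activation. In ELF4 siRNA replicates 1, 2 and 3 CASP8 was 0.170, 0.189 and 0.160 times that row, all below the controls (log2 difference -0.46, exact permutation p = 0.1). The row joining CFLAR with AC007283.5 had a mean of 501 normalised reads in control cells, against 356 in the own row. With the joined row added to CFLAR the difference was -0.59 (exact permutation p = 0.1). The 3 ratios were planned.

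Across genes, levels can be compared only per length. With the length of 1 GENCODE 29 transcript per gene, control cells had 2163 normalised reads per kilobase for CYCS, 631 for DIABLO with both rows summed, 439 for CASP2, 141 for APAF1, 121 for XIAP, 35.2 for CASP9, 28.8 for CASP8 and 19.6 for CASP6. The library ranges of neighbours in this order did not overlap in control cells. The ranges of APAF1 (138 to 143) and XIAP (111 to 135 normalised reads per kilobase) came closest among the 5 abundant genes. After ELF4 siRNA the 2 changed places, with XIAP at 120.0 (range 111 to 135) and APAF1 at 99.9 (range 97.0 to 102) normalised reads per kilobase. Other transcript choices would move these levels, but not the comparison of a gene with itself.

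The 3′ UTRs were searched for the 7-mers ACCTGTC and CCTGTCA, which an earlier examination of these libraries had picked because genes carrying them had lower fold changes, so that their presence here supports nothing. Among the 8 genes only CASP2 and DIABLO carried either in the GENCODE 29 transcript used, with capitals marking the 7-mer.
CASP2: aggcaccgcagCCTGTCAgccaacattgc
DIABLO: gggggaggggaACCTGTCcagtttgtacg

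The CASP2 site began at base 630 of a 3′ UTR of 2625 bases, and the DIABLO site at base 432 of 718. CASP2 fell, and the 2 rows of DIABLO moved in opposite directions. APAF1, CYCS, CASP6 and CASP8 fell without either 7-mer, and XIAP, with the longest of the 3′ UTRs (6798 bases), had none. Of 12554 tested genes with an annotated 3′ UTR, 18.1% held at least 1 of the 2.

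The remaining genes of the pathway were described from 7 lists with 84 genes outside the 8. Of these, 72 were tested, 25 fell and 8 rose, 39 missed the threshold, and their median was -0.11 on the log2 scale; the shares of all genes tested that fell and rose were 24.4% and 20.7%.

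The inhibitors of apoptosis related to XIAP moved in both directions, with 2 of 5 tested rising and 2 falling. BIRC5, or survivin, which acts mainly in cell division, fell from 1521 ± 31.8 to 472 ± 13.4 (log2 fold change -1.69, limma adjusted p = 1.17e-10). BIRC6, a giant ubiquitin ligase that degrades DIABLO and caspases, rose from 5042 ± 408 to 6613 ± 401 (0.39, limma adjusted p = 7.00e-05). The other 2 that passed, named after their values were seen, were BIRC3 (1.93, limma adjusted p = 2.25e-04), which rose from 21.1 ± 10.7 to 76.5 ± 19.1, and BIRC2 (-0.32, limma adjusted p = 0.00104). Of 7 tested antagonists and regulators, 3 fell and 1 rose. AREL1, a ubiquitin ligase for DIABLO and related antagonists, fell from 2615 ± 45.1 to 1640 ± 86.2 (-0.67), and MDM2, a ubiquitin ligase best known for degrading p53, from 584 ± 43.5 to 360 ± 22.7 (-0.69). HTRA2, a mitochondrial protease that binds XIAP as DIABLO does and was also looked up after the fact, had a log2 fold change of -0.13 (limma adjusted p = 0.221).

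**Figure D4:**
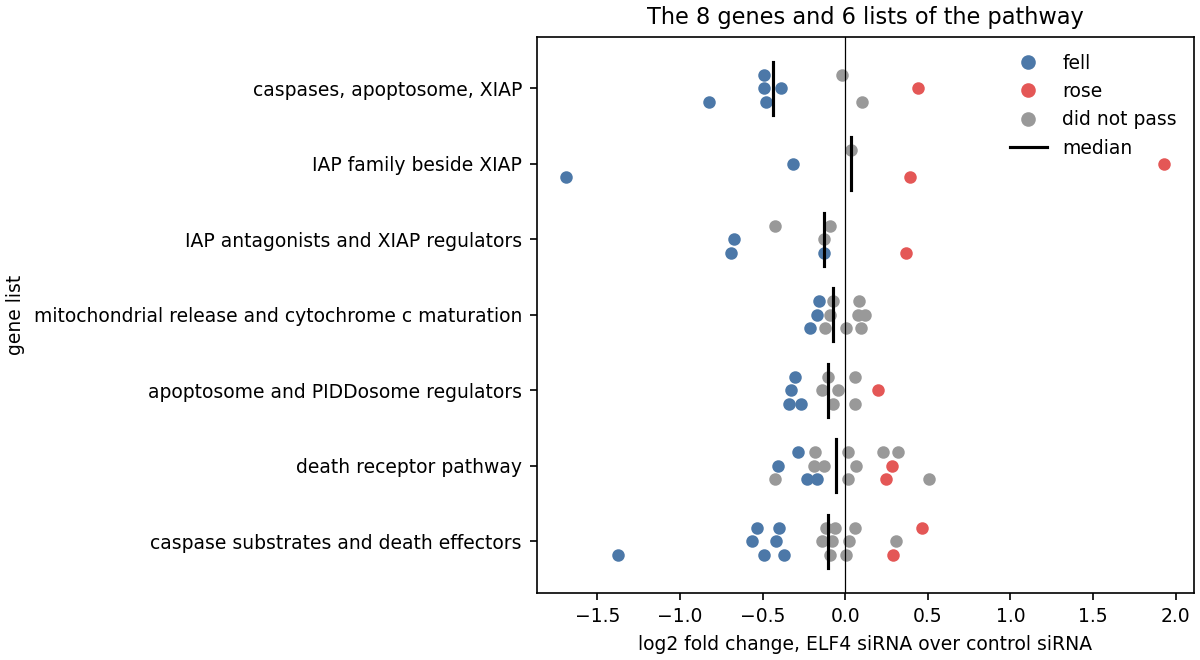
Change on the log2 scale from control to ELF4 siRNA (horizontal axis) for each tested gene of 6 of the 7 pathway lists and for the 8 genes (top row); blue points fell, red rose, grey did not pass, and the black line is the median. The seventh list is not plotted, so the medians shown do not place the 8 genes (median -0.43) against the whole pathway; the widest spread plotted is in the IAP family, from -1.69 (BIRC5) to 1.93 (BIRC3).

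Of 11 tested genes of intermembrane proteins, channels and cytochrome c maturation, 3 fell and 0 rose, 8 missed the threshold, and the median was -0.07 on the log2 scale. OPA1, which shapes the cristae that hold cytochrome c, fell from 4980 ± 247 to 4431 ± 154 (-0.17; limma adjusted p = 0.00785, and 0.0677 without the trend, the highest of a range from 7.19e-04). Of 11 tested regulators of the apoptosome and PIDDosome, 4 fell and 1 rose. They included PTMA, an abundant acidic protein reported to restrain apoptosome formation, which fell from 50394 ± 892 to 39760 ± 162 (-0.34), and the chaperone gene HSPA4, which fell from 10409 ± 212 to 8448 ± 84.8 (-0.30).

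In the death receptor list, which leads to CASP8, 4 of 16 tested genes fell and 2 rose. CASP8AP2, a nuclear protein also needed for histone gene expression, fell from 1400 ± 63.9 to 1057 ± 11.3 (-0.40, limma adjusted p = 1.43e-05). BID, which caspase-8 cleaves to engage the mitochondrial route, fell from 1947 ± 45.5 to 1658 ± 56.3 (-0.23, limma adjusted p = 8.15e-04). CFLAR did not pass by its own row (356 ± 24.9 to 372 ± 32.4, 0.06, limma adjusted p = 0.549), but rose when the row joining it with AC007283.5 was added (0.20, limma adjusted p = 0.0108, the lowest of a range up to 0.972 over the alternatives). Of 18 tested caspase substrates and death effectors, 7 fell and 2 rose. LMNB1, the gene of lamin B1, fell from 6204 ± 291 to 4188 ± 109 (-0.57), whereas SPTAN1, the alpha spectrin gene of the cell cortex, rose from 6777 ± 333 to 9360 ± 419 (0.47).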

How the data were processed

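RNA of 6 BE-(2)-C libraries was measured by sequencing. The values the authors deposited are normalised read counts (a signal), 1 row per gene; TopHat, featureCounts, DESeq2 and hg19 are named in the submitters' processing notes, while versions, roles, annotation and strand setting were not stated there. Values divided by the worth of 1 read were whole within 0.001 for 100% of values, so reads could be recovered; edgeR on them called 4454 genes up and 4807 down. Of the rows, 2148 join several gene names and hold 11.4% of the reads.

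The comparison used limma on log2(value + 1) with a trend and no covariates, over genes reaching 10 in 3 or more libraries. Fold changes on this scale understate those of low genes. Adjusted p-values are Benjamini-Hochberg over all genes tested, at 0.05. Values are means ± SD of 3 libraries. Replicate libraries differed by more than sampling noise (chi-square per degree of freedom 2.05 to 5.78), and no label says whether cultures were separate, so the spread behind each p-value may be technical. The members and lists were chosen with earlier results of these data known. Named genes were ELF4, the 8 members, CFLAR and from each list the 2 with the smallest adjusted p outside the members; some genes that this rule names are not reported here. PIDD1 and GSDME were matched by an older symbol; 7 listed genes had no row of their own and 5 did not reach the minimum.

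Alternatives were other pseudocounts, filters and scalings, no trend, edgeR, DESeq2, a replicate block, leaving out each library, and adding joined rows. On simulated data for this comparison over 20163 genes, 64.9% of 97 genes changed by 0.5 and 92.6% of 95 changed by 1 on the log2 scale were called, with 7 unchanged genes called. The simulation gave all genes the same dispersion and changed far fewer genes than were called in the data. Its rates therefore do not carry over to the real comparison. Tools were DESeq2 1.42.0, edgeR 4.0.16 and limma 3.58.1 in R 4.3.3, and matplotlib 3.10.9, pandas 2.3.3 and numpy 2.4.6 in Python 3.11.15.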

Additional observations from a re-analysis of the deposited data

How the results depend on the processing

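Of 133 values of the 8 genes under 17 alternatives, 131 kept their side of the threshold, and 0 called values changed direction; for values that missed the threshold in both fits no direction was read. The exceptions were CASP6 and CASP8 with DESeq2, so that 3 genes fell in place of 5. With a mean of at least 100, 3 fell as well, because CASP6, CASP8 and CASP9 were not tested. DIABLO was the 1 gene that rose under every alternative run, with a log2 fold change of 0.12 when joined rows were added and 0.41 to 0.48 otherwise. Adding joined rows moved the log2 ratio of DIABLO to XIAP from 0.46 to 0.14 and that of CASP8 to CFLAR from -0.46 to -0.59. Leaving out 1 library gave 0.36 to 0.58 for DIABLO to XIAP, 0.013 to 0.25 for CASP9 to XIAP and -0.52 to -0.40 for CASP8 to CFLAR. Same-numbered libraries had correlations of deviations of 0.029, 0.075 and 0.041, and each of the 6 had its highest correlation with its own number. The labels state no pairing, so the main fit used none, and whether the numbers pair the libraries is not known. The replicate block gave 4564 genes up and 5346 down over all genes, and 1 and 5 among the 8; the 3 ratios stayed at 0.46, 0.12 and -0.46 by construction. Depth limits CASP6, CASP8 and CASP9 most, at 12 to 118 reads per library.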
